A study of Mus musculus with 6 samples.

Results

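The 37 genes described here mark the S phase and the G2 and M phases of the cell cycle, and their messenger RNA was measured in mouse bone marrow-derived macrophages. They were taken by symbol from a list of 17 S phase genes (Mcm2 to Chaf1b) and 20 G2/M genes (Mki67 to Cdc20). All 37 were found, 1 row each, among the 21959 genes of the deposited table. The cells were primary wild-type macrophages grown from bone marrow, and all 6 cultures were kept for 24 h in equal parts of fresh complete medium and used medium from alveolar macrophages, which live in the air spaces of the lung. In 3 libraries (P1, P2 and P3) the medium came from alveolar macrophages positive for HTR2C, the serotonin receptor 2C. In the other 3 (N1, N2 and N3) it came from alveolar macrophages negative for HTR2C. Per the design text, the alveolar macrophages were taken from mice 8 to 12 weeks old and conditioned the medium for 48 h. The strain, the way the cells were separated and whether each numbered sample is a culture, an animal or a medium batch of its own are not given. The p-values below therefore measure the spread among these 6 libraries, which may be technical. No culture without conditioned medium was analysed here.

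Libraries held 12843971 to 16031723 counts, and 12147 to 13179 genes had at least 1 count. The macrophage label was met by its markers: all 8 macrophage genes (Adgre1, Csf1r, Itgam, Cd68, Lyz2, Mertk, Fcgr1 and Spi1) were detected in each library, at a summed 19441 to 22748 CPM with HTR2C-positive and 20048 to 22316 CPM with HTR2C-negative medium. N2 and P1, from different groups, had the highest correlation of any pair of libraries (Pearson r = 0.980 over the log2 CPM of 10177 genes). They also gave the smallest share of counts to the actin gene Actb, 7.03% in P1 and 8.14% in N2 against 10.3% to 13.5% in the others.

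Before a cell divides it copies its DNA once, in S phase. Licensed origins carry the MCM helicase, which Cdc45 and the GINS complex switch on, while ribonucleotide reductase and thymidylate synthase supply the bases. In G2 and M, cyclin A and cyclin B with Cdk1, the Polo-like and Aurora kinases, motor proteins and the anaphase-promoting complex drive the build-up of the spindle and the parting of the chromosomes. Many S phase genes are switched on by E2F factors, and many G2/M genes are held down in resting cells by the DREAM complex at elements named CHR. Macrophages grown from bone marrow divide in response to the growth factor CSF1 and are known to leave the cycle when strongly activated.

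The promoters of the members differed by phase in the short elements they hold. RefSeq windows from 250 bases before to 50 bases after the gene start (build GRCm38.p6) were matched by symbol for 32 of the 37 members, 15 of S phase and 17 of G2/M. The letters TTCCCGC or TTGGCGC of the E2F element, read on both strands, were present in 8 of 15 S phase members (53.3%), in 3 of 17 G2/M members (17.6%) and in 14.2% of the 8214 tested genes that have a window. The CHR letters TTTGAA were present in 3 of 15 S phase members, in 12 G2/M members (70.6%) and in 14.5% of the tested genes. The CCAAT letters bound by NF-Y were present in 11 S phase members (73.3%), in 15 G2/M members (88.2%) and in 42.6% of the tested genes. GCGCCAA, which is TTGGCGC on the opposite strand, shares its last 4 letters with CCAAT, so these matches can overlap. A match describes the letters in this window and is no shown binding site.

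Windows of 300 bases are printed 5′ to 3′, with matched letters in capitals, for 5 members that the levels and the comparison below turn on: the MCM subunits with the highest and the lowest level, and 3 G2/M genes whose groups did not overlap. They lie at chr1:128359656-128359955 (minus strand), chr6:88898731-88899030 (minus strand), chr19:37376132-37376431 (plus strand), chr7:135716330-135716629 (minus strand) and chr13:100786437-100786736 (minus strand).
Mcm6: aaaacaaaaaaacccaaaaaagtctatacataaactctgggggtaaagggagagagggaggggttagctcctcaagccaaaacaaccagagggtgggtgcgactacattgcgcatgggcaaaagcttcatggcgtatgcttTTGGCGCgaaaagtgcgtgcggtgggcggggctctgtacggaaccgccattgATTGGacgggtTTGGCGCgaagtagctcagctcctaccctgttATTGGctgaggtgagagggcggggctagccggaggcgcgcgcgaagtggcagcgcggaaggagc
Mcm2: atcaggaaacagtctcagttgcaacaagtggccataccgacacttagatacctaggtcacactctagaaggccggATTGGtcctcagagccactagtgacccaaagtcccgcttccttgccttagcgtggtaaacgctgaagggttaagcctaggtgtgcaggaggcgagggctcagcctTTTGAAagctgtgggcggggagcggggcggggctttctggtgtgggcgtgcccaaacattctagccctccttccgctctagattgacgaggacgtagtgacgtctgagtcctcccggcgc
Kif11: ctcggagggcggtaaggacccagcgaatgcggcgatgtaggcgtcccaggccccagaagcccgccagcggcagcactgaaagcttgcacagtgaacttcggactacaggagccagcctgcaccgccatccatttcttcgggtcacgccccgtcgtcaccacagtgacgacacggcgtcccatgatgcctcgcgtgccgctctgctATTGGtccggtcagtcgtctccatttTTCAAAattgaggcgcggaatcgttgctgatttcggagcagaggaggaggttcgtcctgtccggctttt
Mki67: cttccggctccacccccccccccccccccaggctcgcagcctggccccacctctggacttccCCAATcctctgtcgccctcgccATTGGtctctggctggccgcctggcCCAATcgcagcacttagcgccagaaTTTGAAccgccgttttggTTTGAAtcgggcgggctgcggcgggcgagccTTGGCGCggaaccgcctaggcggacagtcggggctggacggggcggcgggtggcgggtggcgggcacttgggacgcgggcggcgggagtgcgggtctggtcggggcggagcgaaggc
Ccnb1: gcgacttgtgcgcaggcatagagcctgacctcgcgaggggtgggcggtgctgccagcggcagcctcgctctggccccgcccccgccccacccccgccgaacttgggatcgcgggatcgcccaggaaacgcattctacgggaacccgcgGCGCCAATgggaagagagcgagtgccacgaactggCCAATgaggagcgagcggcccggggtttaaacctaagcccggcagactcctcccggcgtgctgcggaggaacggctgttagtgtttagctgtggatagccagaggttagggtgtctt
Mcm6 holds TTGGCGC at 2 places and Mcm2 holds neither E2F element, but 1 CHR and 1 CCAAT match. Of 35 windows checked for the members, 31 ended in bases found in a GENCODE transcript of the gene, and that of Mcm6 did not. The start of Mcm6 is thus less certain. Kif11 has 1 CHR match 19 bases before the start and 1 CCAAT match 45 bases before it, both on the opposite strand. Mki67 has 2 CHR, 3 CCAAT and 1 TTGGCGC match. Ccnb1 has 2 CCAAT matches, 1 of which shares letters with its only TTGGCGC match, and no TTTGAA.

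The members were low in these cells. On the deposited FPKM scale, which is per length, 20 of the 37 averaged under 1 FPKM, 10 in each phase, against 32.5% of all genes tested. The median level was 0.612 FPKM for the S phase members and 0.877 FPKM for the G2/M members, against 2.37 FPKM for all genes tested. Only 7 members lay above that last value. The highest was Pcna, the sliding clamp of the DNA polymerases, at 22.01 ± 2.07 FPKM (SD, n = 6). After it came Slbp, which binds the stem-loop of histone messenger RNA, at 7.81 ± 0.836 FPKM, Tyms, which encodes thymidylate synthase, at 4.52 ± 0.760 FPKM, and Tpx2, a spindle assembly factor, at 4.15 ± 0.745 FPKM. Ccnb2, Mcm6 and Mki67 averaged 3.67, 3.56 and 3.15 FPKM, and the libraries of these last 4 genes overlapped one another. Pcna, Slbp and Tyms are also used outside S phase, so their level is no count of replicating cells.

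**Figure D1:**
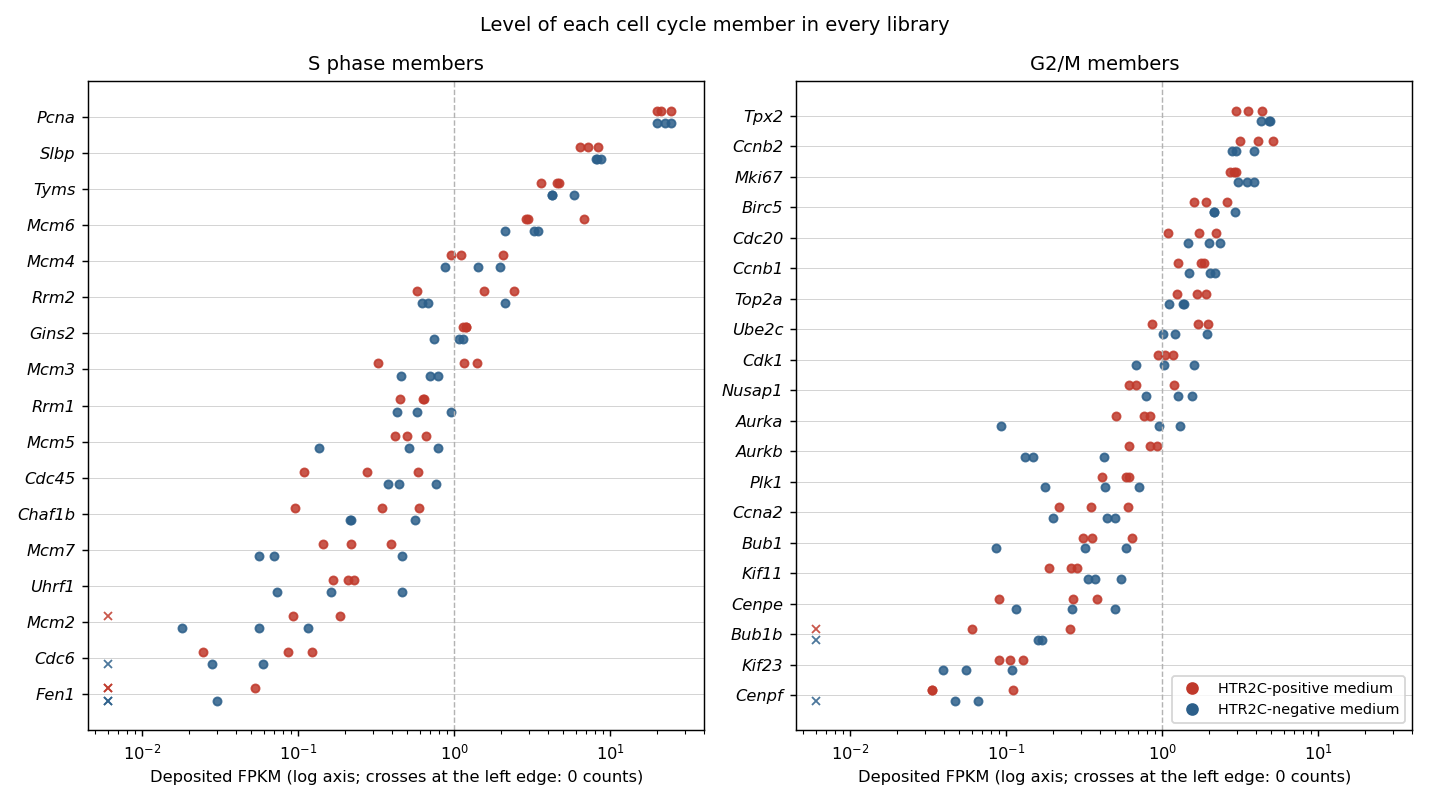
Deposited FPKM of every member in each library, on a log axis, for S phase members (left panel) and G2/M members (right panel), each ordered by mean level; red points are libraries with HTR2C-positive medium, blue points those with HTR2C-negative medium, and crosses at the left edge are libraries with 0 counts. Pcna stands above all others, 20 of the 37 average under the dashed line at 1 FPKM, and 5 members have 0 counts in at least 1 library.

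The subunits of the MCM hexamer, which assemble in equal number as a protein, differed widely in messenger RNA level. Mcm6 averaged 3.56 ± 1.63 FPKM and Mcm2 0.0777 ± 0.0681 FPKM (SD, n = 6), a ratio of 45.8 between the means. Between them were Mcm4 at 1.39 ± 0.518 FPKM, Mcm3 at 0.802 ± 0.411 FPKM, Mcm5 at 0.501 ± 0.221 FPKM and Mcm7 at 0.223 ± 0.169 FPKM. Each library of Mcm6 lay above each of Mcm4, while neighbours further down (Mcm4 and Mcm3, Mcm3 and Mcm5, Mcm5 and Mcm7, Mcm7 and Mcm2) overlapped. FPKM divides by the gene length of the table, which may differ from that of the transcripts in these cells.

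At the bottom of the range, 5 members had 0 counts in at least 1 library. Fen1 encodes the flap endonuclease that trims Okazaki fragments. It had 0, 2 and 0 counts in P1, P2 and P3, against 0, 1 and 0 counts in N1, N2 and N3. These lie at or under the limit of 3 counts per library that a count of 0 allows. That limit is 0.187 to 0.234 CPM of total counts, with no TMM factor. Cdc6, the loader of the MCM helicase, had 7, 10 and 2 counts in P1, P2 and P3, against 0, 2 and 5 counts in N1, N2 and N3. These 2 members were too low to be tested in the comparison. With no filter, the log2 fold change of Cdc6 was 1.25 (SE 1.42, adjusted p = 0.733). Mcm2, the checkpoint kinase gene Bub1b and the kinetochore gene Cenpf also had libraries at 0. Fen1 and Tmem258 overlap by 156 bases on opposite strands, and Tmem258 had 7942 counts over the 6 libraries and Fen1 had 3.

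The comparison asked how the medium of HTR2C-positive alveolar macrophages acts on the receiving macrophages, set against that of HTR2C-negative ones. For the cell cycle genes, none rose or fell past the correction for all genes. Of the 20 G2/M members, 13 had lower fitted values with HTR2C-positive medium, but 8 without library N2. Tpx2, Kif11, Mki67, Ccnb1 and the S phase gene Slbp had lower values in all 3 libraries with HTR2C-positive medium, and Aurkb had higher values. Groups were separate in this way, in either direction, in 17.1% of the tested members and in 22.3% of all genes tested. S phase members were split, with no shift in common. Fewer cycling cells and less transcript per cycling cell cannot be told apart in such bulk libraries.

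With edgeR's quasi-likelihood test over 10177 genes, 35 of the 37 members passed the filter on low counts, and 0 of the 35 had an adjusted p under 0.05, where the background is 0% as well. The lowest adjusted p among the members was 0.174, that of Aurkb. At an unadjusted p under 0.05, 0 of 15 S phase members differed. Of the 20 G2/M members, 1 was higher and 3 were lower, while the shares over all genes tested were 7.90% higher, 8.71% lower and 16.6% in either direction. Over both phases, 4 of 35 members (11.4%) were past that limit, a share under the background. DESeq2 gave an adjusted p to 6217 genes and called 1.87% of them higher and 4.34% lower, at an adjusted p under 0.05. It called 0 members, but most members, Aurkb and Kif11 among them, were given no adjusted p and could not be called. No gene at all was called by limma-voom.

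The groups did not overlap in 1 of 15 S phase members (Slbp, lower) and in 5 of 20 G2/M members, of which 1 was higher and 4 lower. Over all genes tested, 22.3% of groups did not overlap, 10.9% higher and 11.5% lower. The share of the G2/M members is thus near that of all genes. A positive log2 fold change was found in 7 of 15 S phase and 7 of 20 G2/M members, where 52.1% of all genes had one. The median log2 fold change was -0.083 for the S phase members and -0.21 for the G2/M members, against 0.020 for all genes tested. Scaling to total counts alone moved the median of all genes by about as much as it moved the members, to 0.16, with 0.059 for S phase, whose sign thus turned, and -0.076 for G2/M. Relative to all genes the medians then stood -0.099 and -0.23 off, against -0.10 and -0.23 before. Without library N2 the medians were 0.38 for S phase and 0.066 for G2/M. The S phase median was -0.064 with N2 and P1 both left out, -0.0011 without P2 and -0.00050 without P3.

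**Figure D2:**
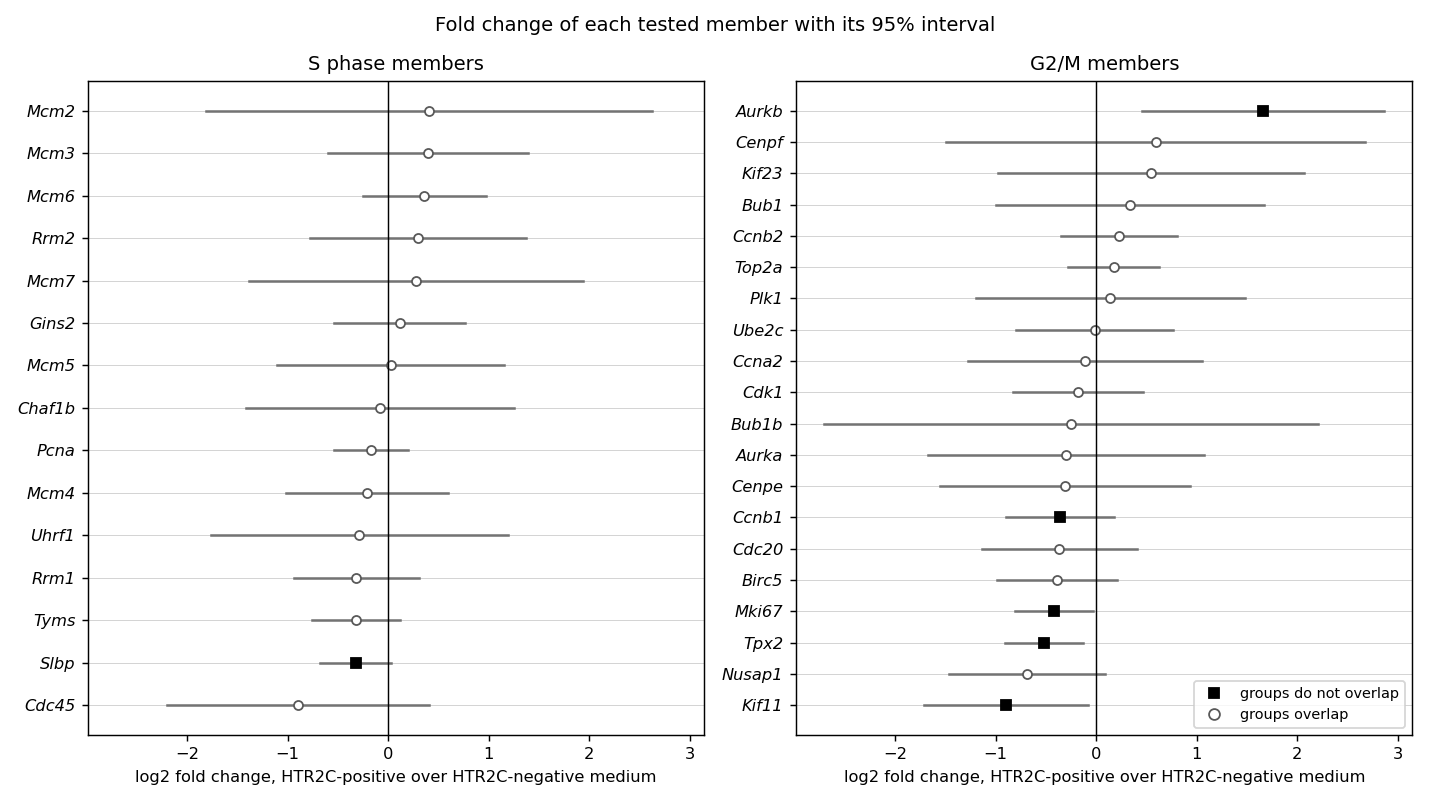
Log2 fold change of HTR2C-positive over HTR2C-negative medium (horizontal axis) for the 35 tested members, S phase in the left panel and G2/M in the right, with 95% intervals from edgeR's fit; filled squares are members whose groups do not overlap. The interval of each S phase member crosses 0, and those of Aurkb, Tpx2, Kif11 and Mki67 do not, before any correction for the number of genes.

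Among the S phase genes, the MCM helicase subunits had mostly positive fold changes with all 6 libraries and mostly negative ones without P1. With all libraries, 5 of 6 had a positive log2 fold change and the median was 0.32. Without P1, 1 of the 5 that could be tested had one, and the median was -0.091. With N2 and P1 both left out it was 2 of 4. Mcm6 was at 27.96, 13.9 and 12.996 CPM in P1, P2 and P3, against 11.1, 15.2 and 16.3 CPM in N1, N2 and N3. P1 stood far above the other 5 libraries, which overlapped between the groups. The log2 fold change was 0.36 (95% interval -0.26 to 0.98), and -0.066 without P1. Mcm3 was at 4.68, 1.26 and 4.05 CPM in P1, P2 and P3, against 1.94, 2.48 and 3.16 CPM in N1, N2 and N3. Its values spread more within the HTR2C-positive group than between the groups (log2 fold change 0.40, SE 0.46). For Mcm4, Mcm5, Mcm7 and Mcm2 the log2 fold changes were -0.21, 0.024, 0.27 and 0.41, with standard errors of 0.37 to 1.03.

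Genes that turn the helicase on differed in sign. Cdc45, which joins the helicase when an origin fires, was at 1.83, 0.397 and 0.907 CPM in P1, P2 and P3, against 1.77, 1.24 and 2.89 CPM in N1, N2 and N3. The groups overlapped, since P1 lay above N1 and N2, and the log2 fold change of -0.90 had an interval of -2.20 to 0.40. It was -1.56 without P1 and -0.52 without P2. Gins2, a subunit of the GINS complex, was at 4.11, 5.03 and 4.59 CPM in P1, P2 and P3, against 5.30, 4.13 and 3.29 CPM in N1, N2 and N3. Its groups overlapped, and the log2 fold change was 0.11 (interval -0.54 to 0.77).

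The genes of nucleotide supply were Rrm1 and Rrm2, the large and small subunits of ribonucleotide reductase, and Tyms. Tyms was at 25.2, 22.8 and 25.9 CPM in P1, P2 and P3, against 40.7, 24.4 and 27.6 CPM in N1, N2 and N3. N1 was the highest and the other libraries overlapped (log2 fold change -0.32, interval -0.76 to 0.12). Rrm2, the subunit whose amount follows the cycle, was at 5.93, 1.65 and 4.05 CPM in P1, P2 and P3, against 1.94, 5.50 and 2.02 CPM in N1, N2 and N3. P1 and N2 were the highest of their groups in Rrm2, and P2, N1 and N3 were the lowest, so the split ran across the media (log2 fold change 0.30, SE 0.50). Rrm1 had a log2 fold change of -0.32 (SE 0.29).

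Of 5 genes of the fork, of new chromatin and of histone messages, the 4 tested had negative fold changes, of -0.32 to -0.083, while Fen1 was too low to test. With total counts Chaf1b turned to 0.059, and Uhrf1 was at 0.55 without N2. Slbp (chromosome 5, 33792296 to 33809918, GRCm39) was at 44.97, 45.7 and 36.6 CPM in P1, P2 and P3, against 59.9, 46.2 and 53.3 CPM in N1, N2 and N3. The groups did not overlap, though P2 and N2 were close. Its log2 fold change was -0.32 (interval -0.68 to 0.032, adjusted p = 0.343), and -0.17 once library trends over GC content and gene length were removed. Pcna was at 44.9, 49.7 and 55.4 CPM in P1, P2 and P3, against 60.9, 45.2 and 62.8 CPM in N1, N2 and N3. Its groups overlapped, and the log2 fold change of -0.17, which turned to 0.059 after removal of the same trends, had an interval of -0.54 to 0.20, the only member's interval within a 1.5-fold change in either direction. Uhrf1, which carries DNA methylation over to the new strand, and Chaf1b, a subunit of the chromatin assembly factor CAF-1, had log2 fold changes of -0.29 and -0.083 with standard errors of 0.69 and 0.62.

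Among the G2/M genes, 6 belong to the spindle and kinetochore, and Tpx2 and Kif11 of these had an unadjusted p under 0.05, both with lower values, where 8.71% of all genes did. In all, 4 of the 6 had a negative log2 fold change. Tpx2, which activates Aurora A and nucleates microtubules (chromosome 2, 152689884 to 152737241, GRCm39), was at 17.98, 14.5 and 15.7 CPM in P1, P2 and P3, against 22.9, 21.5 and 24.4 CPM in N1, N2 and N3. All 3 libraries with HTR2C-positive medium lay under all 3 with HTR2C-negative medium. The means were 16.04 ± 1.77 CPM with HTR2C-positive medium and 22.9 ± 1.44 CPM with HTR2C-negative medium (SD, n = 3 each). The log2 fold change was -0.52 (SE 0.18, interval -0.90 to -0.13, adjusted p = 0.190). Without N2 and P1 the adjusted p was 0.0499, the only call of a member under the 16 alternatives. There, 1107 of 10156 genes were called. N2 and P1 are the pair with the highest correlation in these same data, so this call is no separate support. Scaled to total counts, the log2 fold change of Tpx2 was -0.37.

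Kif11, the kinesin that pushes the spindle poles apart (chromosome 19, 37364851 to 37410307, GRCm39; window printed above), was at 1.71, 1.46 and 1.99 CPM in P1, P2 and P3, against 2.83, 3.85 and 2.96 CPM in N1, N2 and N3. The groups were separate in CPM, but on few reads: there were 30, 22 and 33 counts in P1, P2 and P3, against 32, 56 and 44 counts in N1, N2 and N3, and those of P3 and N1 cross. In the fit, the log2 fold change was -0.90 (SE 0.38, interval -1.71 to -0.087, adjusted p = 0.259). Nusap1, which bundles spindle microtubules, was at 4.28, 2.58 and 2.60 CPM in P1, P2 and P3, against 7.16, 4.81 and 3.43 CPM in N1, N2 and N3. P1 and N3 crossed, so the groups overlapped, and the log2 fold change of -0.69 was -0.43 after removal of the GC and length trends and -0.38 without N1. Cenpe, a kinetochore motor, and Cenpf, a kinetochore protein, had log2 fold changes of -0.31 and 0.59. Kif23, a motor of the midbody in cytokinesis, had 0.54. Their intervals were -1.56 to 0.94, -1.49 to 2.68 and -0.98 to 2.06.

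The proliferation marker Mki67, whose protein coats mitotic chromosomes, and Top2a, the topoisomerase that untangles them, had fold changes of opposite sign. Mki67 (chromosome 7, 135291513 to 135318090, GRCm39; window printed above) was at 25.6, 30.97 and 25.4 CPM in P1, P2 and P3, against 44.03, 33.1 and 33.1 CPM in N1, N2 and N3. P2, the highest with HTR2C-positive medium, was just under N2 and N3. The means were 27.3 ± 3.14 CPM with HTR2C-positive medium and 36.7 ± 6.33 CPM with HTR2C-negative medium (SD, n = 3 each). The log2 fold change was -0.42 (SE 0.18, interval -0.81 to -0.036, adjusted p = 0.264). It was -0.28 scaled to total counts and -0.28 without N1. Top2a was at 15.3, 11.6 and 14.1 CPM in P1, P2 and P3, against 13.97, 11.8 and 10.8 CPM in N1, N2 and N3, with overlapping groups and a log2 fold change of 0.17 (interval -0.28 to 0.62).

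Cyclin genes and their kinase had intervals that crossed 0. Ccnb1, the cyclin B1 gene (chromosome 13, 100915158 to 100923078, GRCm39; window printed above), was at 6.96, 5.56 and 7.01 CPM in P1, P2 and P3, against 7.07, 8.04 and 9.95 CPM in N1, N2 and N3. The groups did not overlap, but P3 and N1 were close. The log2 fold change was -0.36 (interval -0.90 to 0.18), and -0.19 after removal of the GC and length trends. Ccnb2, the cyclin B2 gene, had the opposite sign, 0.22 (interval -0.35 to 0.80). Cdk1, the kinase both cyclins bind, was at 5.14, 4.83 and 4.84 CPM in P1, P2 and P3, against 3.80, 7.43 and 5.44 CPM in N1, N2 and N3. The HTR2C-positive libraries of Cdk1 were nearly equal and lay inside the range of the others (log2 fold change -0.18, interval -0.82 to 0.47). Ccna2, the cyclin A2 gene, had -0.11 (SE 0.54).

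Aurkb, the kinase of the chromosomal passenger complex (chromosome 11, 68936473 to 68942490, GRCm39), had the largest log2 fold change of any tested member and the smallest p of them. It was at 2.17, 2.85 and 1.69 CPM in P1, P2 and P3, against 0.442, 1.17 and 0.471 CPM in N1, N2 and N3. These came from 38, 43 and 28 counts in P1, P2 and P3, against 5, 17 and 7 counts in N1, N2 and N3. Each library with HTR2C-positive medium lay above each with HTR2C-negative medium, with N2 the nearest. The log2 fold change was 1.66 (SE 0.56, interval 0.45 to 2.87, adjusted p = 0.174), and between 1.44 and 2.30 over the 16 alternatives, with an adjusted p of 0.064 to 0.783. Birc5, which encodes survivin, the partner of Aurkb in that complex, was at 5.76, 5.63 and 8.28 CPM in P1, P2 and P3, against 11.2, 6.88 and 7.80 CPM in N1, N2 and N3. Its groups overlapped and its log2 fold change was of the other sign, -0.39 (interval -0.99 to 0.21).

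The other mitotic kinases had wide intervals. Aurka, the Aurora A gene that Tpx2's protein activates, was at 1.88, 1.32 and 1.81 CPM in P1, P2 and P3, against 0.265, 2.27 and 3.56 CPM in N1, N2 and N3. N1 was far under the other 5 libraries, and the log2 fold change of -0.30 had an interval of -1.67 to 1.07. Plk1, the Polo-like kinase gene, and Bub1 and Bub1b, kinase genes of the spindle checkpoint, had log2 fold changes of 0.14, 0.33 and -0.25, with standard errors of 0.62, 0.62 and 1.14. For mitotic exit, Cdc20, an activator of the anaphase-promoting complex, was at 3.65, 2.12 and 3.02 CPM in P1, P2 and P3, against 4.95, 3.51 and 2.96 CPM in N1, N2 and N3 (log2 fold change -0.37, interval -1.13 to 0.40). Ube2c, the ubiquitin-conjugating enzyme of that complex, had -0.015 (interval -0.79 to 0.77).

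**Figure D3:**
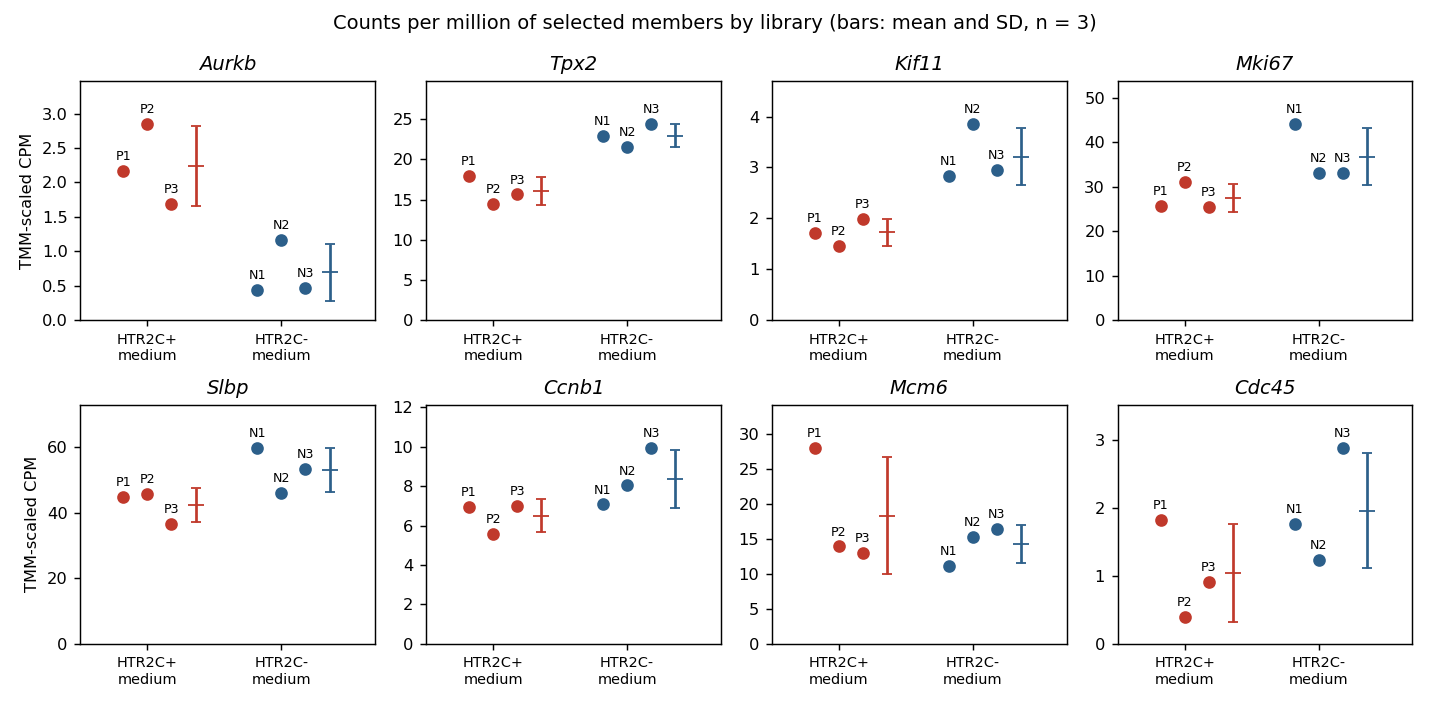
TMM-scaled CPM, counts scaled to a common library size (vertical axis, from 0) of 8 members in each library, with HTR2C-positive medium in red on the left of each panel and HTR2C-negative medium in blue on the right; bars are mean and SD of 3 libraries. Aurkb, Tpx2, Kif11, Mki67, Slbp and Ccnb1 have separate groups, Mcm6 rests on P1 at 27.96 CPM, and Cdc45 overlaps.

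Summed over members, the phases could be set beside each other in each library. The 17 S phase genes summed to 181, 155 and 159.5 CPM in P1, P2 and P3, against 202, 169 and 185 CPM in N1, N2 and N3, with overlap. Pcna, Slbp and Tyms made up 73.5% of that sum. Without them the other 14 summed to 66.03, 36.4 and 41.6 CPM in P1, P2 and P3, against 40.3, 53.4 and 40.9 CPM in N1, N2 and N3. P1 and N2 were then the highest, 1 from each group.

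The 20 G2/M genes summed to 109.9, 102 and 103 CPM in P1, P2 and P3, against 136, 126 and 118 CPM in N1, N2 and N3, without overlap. Scaled to total counts alone, in CPM with no TMM factor, the sums were 124, 98.3 and 109.6 in P1, P2 and P3, against 119.6, 133 and 109 in N1, N2 and N3, and overlapped. Mki67 and Tpx2 made up 44.5% of the G2/M sum. The other 18 summed to 66.3, 56.8 and 61.9 CPM in P1, P2 and P3, against 68.9, 71.1 and 60.2 CPM in N1, N2 and N3, and overlapped.

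**Figure D4:**
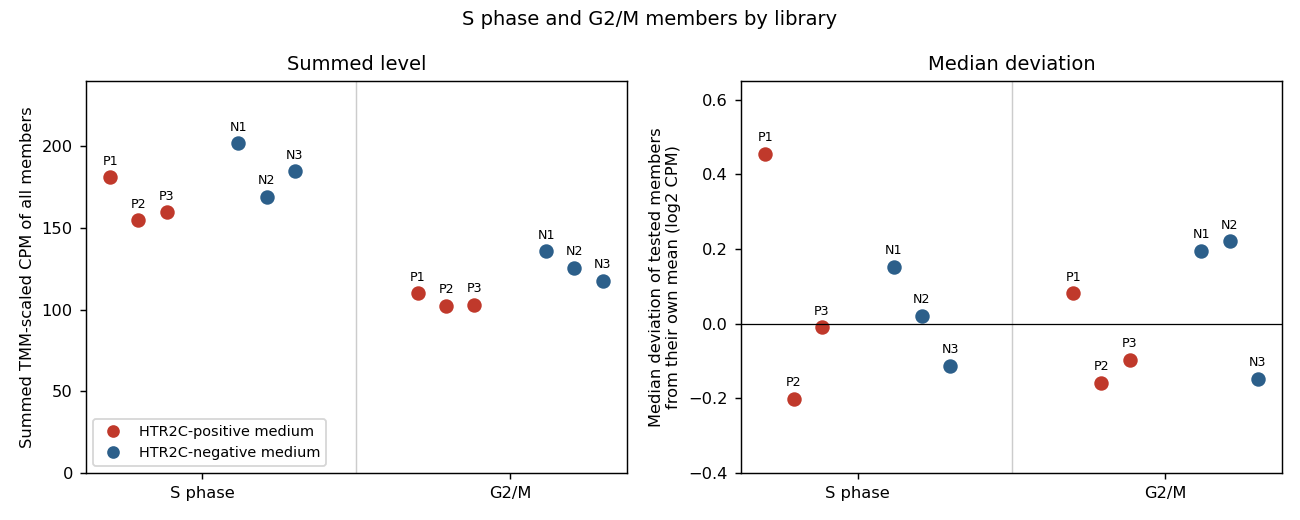
Left panel: TMM-scaled CPM summed over all members of each phase, from 0, in each library. Right panel: median over the tested members of the deviation from their own mean over 6 libraries, in log2 CPM; red points are HTR2C-positive and blue points HTR2C-negative medium. The G2/M sums separate at 102 to 110 CPM against 118 to 136 CPM, while P1 stands highest in the S phase deviation, at 0.46.

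Libraries of the same medium also differed among themselves. The median S phase member deviated from its own mean by 0.46, -0.20 and -0.0099 log2 CPM in P1, P2 and P3, against 0.15, 0.022 and -0.11 in N1, N2 and N3. Of the 15 tested S phase members, N2 had the highest value in 5, P1 and N1 in 4 each, and N3 in 2, while P2 had the lowest in 6. For the G2/M members the deviations were 0.081, -0.16 and -0.096 in P1, P2 and P3, against 0.20, 0.22 and -0.15 in N1, N2 and N3. P2 had the lowest value in 8 of the 20 G2/M members, while P1 and N2 had the lowest in 0.

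The 9 myeloid progenitor genes (Kit, Cd34, Flt3, Mpo, Elane, Prtn3, Ctsg, Gata2 and Myb) summed to 14.4, 6.82 and 9.49 CPM in P1, P2 and P3, against 5.30, 10.5 and 5.65 CPM in N1, N2 and N3, with 7 to 9 of them detected in each library. P1 and N2 held the highest sum of each group, as in the sum of the other 14 S phase genes, but N1 had the lowest progenitor sum and the highest S phase and G2/M sums over all members with TMM factors (P1 and N2 had the highest with total counts). Mpo had 80, 29 and 43 counts in P1, P2 and P3, against 18, 40 and 21 in N1, N2 and N3. For Elane these were 62, 28 and 45 against 11, 44 and 20, and for Prtn3 53, 8 and 26 against 10, 17 and 4. Each of these was highest in P1 and in N2 within its group, while Ctsg was highest in P3 and in N3. Markers with few counts differed in direction. Flt3 had 8, 2 and 1 counts in P1, P2 and P3, against 0 in N1, N2 and N3. Cd34 had 1, 3 and 0 counts in P1, P2 and P3, against 2, 5 and 8 in N1, N2 and N3. Neutrophil markers summed to 1120.0 to 1408 CPM with HTR2C-positive and 952 to 1171 CPM with HTR2C-negative medium, with Ly6g and Cxcr2 at 0 throughout. The part of such cells in the members' levels was not tested.

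The width of the intervals set how small a difference could be seen. The standard error of the log2 fold change fell with level, from 1.14 for Bub1b and 1.03 for Mcm2 to 0.16 for Slbp and 0.17 for Pcna. The 95% intervals were between 0.71 and 4.92 log2 units wide, with a median of 1.62. They lay within a 2-fold change in either direction for 6 of the 15 S phase members and 8 of the 20 G2/M members. For the other tested members a 2-fold difference in at least 1 direction lay within the interval. The biological coefficient of variation of the members had a median of 0.310, against 0.301 for genes with 0.5 to 2 times their counts. It was above that of such genes in 22 of 35 members, among them 12 of the 15 S phase members and all 6 MCM genes, with 0.247 for Mcm6 against 0.188.

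**Figure D5:**
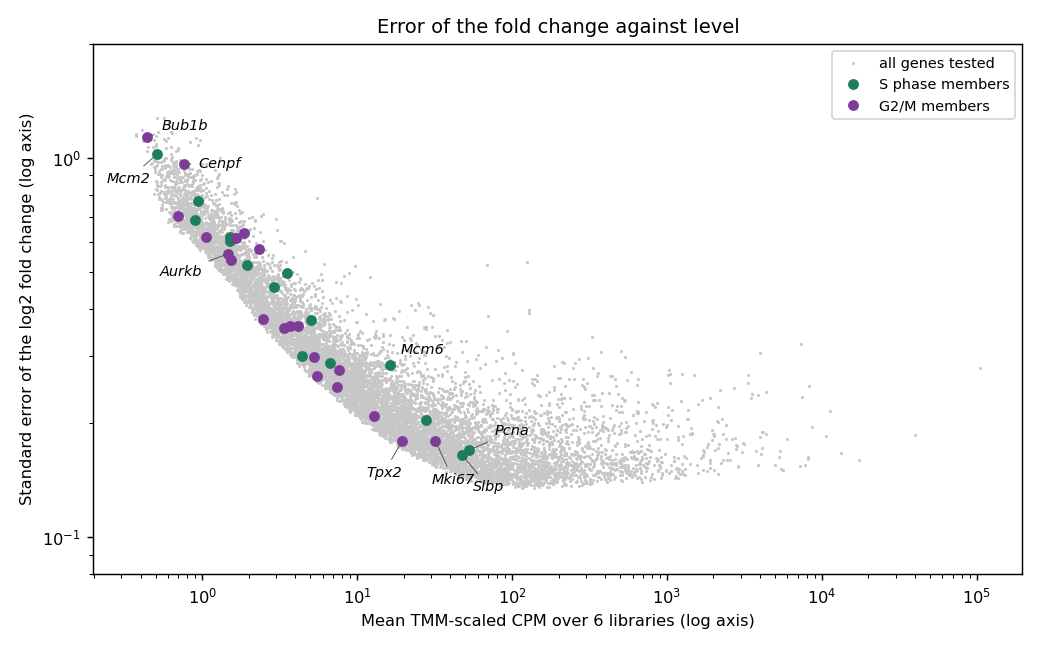
Standard error of the log2 fold change (vertical, log axis) against mean TMM-scaled CPM over 6 libraries (horizontal, log axis) for 10177 genes (grey), the 15 tested S phase members (green) and the 20 G2/M members (purple). Members lie along the band of all genes, with errors of 0.16 for Slbp, 0.17 for Pcna and 1.14 for Bub1b.

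Beyond the members, other cell cycle genes were followed in lists chosen with earlier results of these data known. None of the lists held a gene past the correction in the main edgeR fit, and the 3 genes with the smallest p of each are named. Among the named genes, Ccnd3, Lin52, Dbf4, Gadd45a and Mdm2 were each called under 1 of the 16 alternatives. Orc4 and Btg2 were each called under 2. Among 37 tested genes (of 41 listed) of replication, 2 had higher and 4 had lower values by an unadjusted p under 0.05, or 16.2% against a background of 16.6%. Orc4, a subunit of the origin recognition complex, was at 43.2, 42.6 and 46.5 CPM in P1, P2 and P3, against 71.3, 57.2 and 61.6 CPM in N1, N2 and N3 (log2 fold change -0.52, adjusted p = 0.134). All 3 libraries with HTR2C-positive medium were lower, and DESeq2 gave Orc4 an adjusted p of 0.0431. Over the 16 alternatives the adjusted p of Orc4 ran between 0.0147 and 0.839, and its log2 fold change was -0.21 after removal of the GC and length trends. Cdt1, which loads the MCM helicase together with Cdc6, was at 4.96, 4.24 and 4.53 CPM in P1, P2 and P3, against 2.30, 1.72 and 2.89 CPM in N1, N2 and N3 (log2 fold change 0.99, adjusted p = 0.174). The Cdt1 values did not overlap either, with HTR2C-positive medium higher, and the log2 fold change was 0.56 after removal of the GC and length trends. Dbf4, the activator of the kinase Cdc7 that fires origins, was at 2.17, 0.926 and 0.725 CPM in P1, P2 and P3, against 2.83, 2.27 and 3.83 CPM in N1, N2 and N3 (log2 fold change -1.21, adjusted p = 0.242), with a log2 fold change of -1.83 without P1.

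Among 42 tested genes (of 50 listed) of mitosis, an unadjusted p under 0.05 was reached by 3, each with lower values. That is 7.14%, under the background of 8.71% for lower values and 16.6% in either direction, and the median log2 fold change was -0.16. Those 3 were Ndc80, the outer kinetochore gene, Hmmr, a spindle-associated gene, and Smc2, a condensin subunit. Ndc80 was at 1.03, 0.993 and 0.907 CPM in P1, P2 and P3, against 2.83, 1.65 and 2.49 CPM in N1, N2 and N3 (log2 fold change -1.24, adjusted p = 0.218). Hmmr was at 0.571, 0.397 and 0.665 CPM in P1, P2 and P3, against 1.06, 1.99 and 1.68 CPM in N1, N2 and N3 (log2 fold change -1.52, adjusted p = 0.226). Smc2 had a log2 fold change of -0.81 (adjusted p = 0.259), which was -0.54 after removal of the GC and length trends. In 8 of the 42 genes (19.0%) the groups did not overlap, all 8 with lower values, where 22.3% is the background in both directions and 11.5% that for lower values.

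Regulators of entry into S phase had no common direction. Of 21 tested genes of 23, 1 (4.76%) had an unadjusted p under 0.05, with higher values. That is under the background of 16.6% in either direction and 7.90% for higher values. The gene was E2f4, an E2F factor of resting cells, at 14.4, 13.3 and 16.4 CPM in P1, P2 and P3, against 11.1, 10.7 and 10.6 CPM in N1, N2 and N3 (log2 fold change 0.45, adjusted p = 0.275). The 3 libraries with HTR2C-positive medium were higher, and the log2 fold change of E2f4 was 0.16 after removal of the GC and length trends. E2f6, a repressor of the family, had 7, 1 and 21 counts in P1, P2 and P3, against 21, 14 and 36 counts in N1, N2 and N3 (log2 fold change -1.57, adjusted p = 0.329), and its log2 fold change was -2.82 without P3. Ccnd3, the cyclin D3 gene, was at 26.99, 7.21 and 4.41 CPM in P1, P2 and P3, against 5.48, 9.01 and 4.97 CPM in N1, N2 and N3. Its log2 fold change of 0.99 rested on P1 and was -0.14 without that library. Ccnd1, Ccne1 and Cdk2, the genes of cyclin D1, cyclin E1 and the kinase partner of cyclin E1, had log2 fold changes of 0.49, -0.26 and 0.17. E2f1, the activating E2F, Rb1, the retinoblastoma gene, and Myc, a growth-driving transcription factor gene, had -0.17, 0.48 and -0.36. The groups of each of these 6 genes overlapped.

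The inhibitor of cyclin-dependent kinases Cdkn1a, which encodes p21, was at 1086, 1112 and 839.6 CPM in P1, P2 and P3, against 747, 702 and 802 CPM in N1, N2 and N3, and all 3 libraries with HTR2C-positive medium were the higher. Its means were 1013 ± 150.5 CPM with HTR2C-positive medium and 750.4 ± 50.1 CPM with HTR2C-negative medium (SD, n = 3 each). For Cdkn1a the log2 fold change was 0.43 (SE 0.16, adjusted p = 0.210), and 0.15 after removal of the GC and length trends. Cdkn1b, which encodes p27, was at 188, 423 and 356 CPM in P1, P2 and P3, against 484, 273 and 437 CPM in N1, N2 and N3. P1 and N2 were the lowest of each group, and the log2 fold change was -0.30 (SE 0.27). Cdkn2d and Cdkn1c, other inhibitor genes, had 0.22 and 0.43. Of 6 tested genes of a list of 8, 1 (Cdkn1a) was past an unadjusted p of 0.05. That is 16.7%, near the background of 16.6% in either direction.

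Among 14 tested p53 target genes (of 15 listed), 3 with higher values and 1 with lower values had an unadjusted p under 0.05. The background is 7.90% and 8.71%. In either direction the share was 28.6%, against a background of 16.6%. The higher genes included Cdkn1a, which was already counted among the inhibitors above. Gadd45a, a stress gene of the DNA damage response, was at 6.85, 11.98 and 9.79 CPM in P1, P2 and P3, against 5.04, 6.12 and 4.97 CPM in N1, N2 and N3 (log2 fold change 0.82, adjusted p = 0.166). Btg2, an antiproliferative gene, was at 130.3, 168 and 153 CPM in P1, P2 and P3, against 264, 182 and 214 CPM in N1, N2 and N3 (log2 fold change -0.55, adjusted p = 0.155), and DESeq2 gave it an adjusted p of 0.0481, within a range of 0.00480 to 0.783 over the alternatives. The groups of both did not overlap, with opposite signs. Mdm2, the ubiquitin ligase of p53, had a log2 fold change of -0.29.

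Of the genes that switch the G2/M programme, few could be tested. Foxm1, the forkhead factor of G2/M genes, had 5, 0 and 5 counts in P1, P2 and P3, against 8, 9 and 8 counts in N1, N2 and N3, and Mybl2, the B-Myb gene, had 2, 1 and 0 counts in P1, P2 and P3, against 0, 0 and 2 counts in N1, N2 and N3, both too low for the filter. Foxm1 counts did not overlap between the groups, yet those in P1 and P3 were only 3 reads under N1 and N3. Among the 5 tested genes of a list of 7, Lin52 of the MuvB core was at 11.01, 12.1 and 7.19 CPM in P1, P2 and P3, against 15.3, 11.7 and 18.8 CPM in N1, N2 and N3 (log2 fold change -0.60, adjusted p = 0.265). The groups of Lin52 overlapped at P2 and N2, and its log2 fold change was -0.38 after removal of the GC and length trends. Its partners Lin9 and Lin54 had log2 fold changes of -0.27 and -0.084.

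Some counts are uncertain for reasons of position or copy. On GRCm39, 8 of the 37 members overlap another gene of the table, each time on the opposite strand, and whether the counting used strand is not given in the sources used here. Besides Fen1, these were Mcm7, Cdc45, Gins2, Ccna2, Nusap1, Cdc20 and Ube2c. Pcna, Tyms, Ccnb1 and Ccnb2 have annotated pseudogene copies, so their counts depend on how reads that match several places were treated.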

How the data were processed

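Messenger RNA was sequenced from 6 cultures, and the depth is given at the start of the report. Per the labels' protocols, Trizol served for the RNA and a VAHTS Universal kit for the libraries. Per the submitters' processing notes, fastp, HISAT2, StringTie, edgeR and build GRCm39 were used, with no version, annotation release or counting setting named (each not given in the sources used here). Per the file headers, the deposited table gives a read count per gene and library with no normalization. FPKM as deposited could be rebuilt from the counts, the gene length in the table and the total of each library (largest relative difference 3.80e-07), so they were used as they stand for levels between genes.

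The counts went into edgeR 4.0.16 under R 4.3.3. Genes kept by filterByExpr (10177) were scaled with TMM factors and tested with its quasi-likelihood method in the robust form. Benjamini-Hochberg adjustment ran across the whole of these genes, with calls at 0.05; other p-values are marked unadjusted. Log2 fold changes are HTR2C-positive over HTR2C-negative medium. CPM values are TMM-scaled unless stated. Standard errors are the fold change over the root of the F statistic, and intervals cover 95%. The test was also run on counts simulated from the fitted dispersions, with an outcome not given here. Those libraries were drawn independently, so the likeness of N2 and P1 was not part of them. Alternatives were RLE factors, total counts, other filters, DESeq2 1.42.0, limma-voom (limma 3.58.1), a replicate block, removal of each library's spline trend with GC content and length, and left-out libraries. GC content came from GENCODE M21 transcripts for all 37 members, without coordinates. Genes named beside the members are the 3 with the smallest p of each list, plus Ccnd1, Ccne1, Cdk2, E2f1, Rb1, Myc, Cdkn1a, Cdkn1b, Foxm1, Mybl2 and Mdm2. The members and lists were chosen with earlier results of these data known. Marker lists for other cell types were summed as well: T and NK cell genes reached at most 1.83 CPM, B cell genes 7.29, erythroid genes 0.544, mast cell and basophil genes 22.8, stromal genes 73.4 and monocyte genes 112. Floors cover counting error only.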

Additional observations from a re-analysis of the deposited data

How the results depend on the processing

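The 16 alternatives moved these values. edgeR called 0 genes of all tested (1690 at an unadjusted p under 0.05), against 386 with DESeq2, 422 without a count filter, 1107 without N2 and P1, and 0 to 206 with 1 library left out (206 without N2, 186 without P1). With total counts, 74.7% of the genes at an unadjusted p under 0.05 were higher with HTR2C-positive medium, against 47.6% with TMM factors. The median log2 fold change ranged from -0.21 to 0.38 for S phase members and from -0.29 to 0.066 for G2/M members with 1 library left out, and was -0.064 for S phase and 0.059 for G2/M without N2 and P1. The 3 lower G2/M members became 1 with the GC and length trend removed, 0 with total counts, 2 without a count filter, and 2 in each case with 1 library left out. Lower S phase members, 0 in the report, were 3 without N2 and P1 and 0 to 2 with 1 library left out. The cause of these shifts was not tested. Of 949 values for single genes under the alternatives, 59 had the other sign, and the sign held throughout for 16 of the 35 tested members. Most members averaged under 1 FPKM, and the standard error of the fold change tended to be larger at low levels. The labels do not say that equal replicate numbers pair samples, and deviations from the group means correlated at -0.15, -0.23 and 0.05 for the pairs of equal number. With the replicate block, 0 genes were called and 1 G2/M member was lower in place of 3, and 1 with block and trend removal combined.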
